A study of Mus musculus with 6 samples.

Results

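The nuclear genes that encode subunits of the mitochondrial respiratory chain were compared between spleens from the first passage (P1) of the Eµ-SOX11CCND1 mouse lymphoma model and B cells of wild-type (WT) mice. Members were the protein-coding rows of the count table whose symbol, found by Ensembl ID, was Ndufa, Ndufb, Ndufc, Ndufs or Ndufv with a number or Ndufab1, was Sdha to Sdhd, or began with Uqcr, Cox4i, Cox5, Cox6, Cox7, Cox8 or Atp5 (Atp5s and Atp5sl apart). The rule gave 84 of 56884 rows, with 83 symbols, since Atp5o has 2 gene IDs. Of these, 37 were counted with complex I, 4 with complex II, 8 with complex III, 18 with complex IV and 17 with complex V. The complex was assigned by symbol alone, which need not match where each protein is found. Genes with a like role whose symbol in the annotation used begins otherwise are not counted here.

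The respiratory chain lies in the inner mitochondrial membrane. Complex I takes electrons from NADH and complex II from succinate, ubiquinone carries them to complex III and cytochrome c on to complex IV, which reduces oxygen, while complexes I, III and IV pump protons. Complex V, the ATP synthase, lets the protons return and makes ATP. Most subunits are encoded in the nucleus and imported, but complexes I, III, IV and V also need subunits encoded by the mitochondrial genome. Some complex IV subunits come in a form used by most cells and a form restricted to muscle, lung or testis.

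The model's name joins the Eµ immunoglobulin enhancer, which directs expression to B cells, with SOX11 and CCND1, genes known for high expression in mantle cell lymphoma. The P1 group was 3 libraries from whole, unselected spleens of mice that had received adoptively transferred cells of the model (P1 replicates 3, 4 and 5), so each also holds the recipient's own spleen cells. The WT group was 3 libraries of B cells selected from WT spleen, called WT A, B and C since the column names do not say which mouse is which. Age and sex are not given in the labels, and the strain only for WT, whose column names read BL6. Nor do the labels say whether the 3 recipients received cells of 1 donor or of several, so the p-values cover only the spread among the libraries at hand, which may be smaller than that among tumours.

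Library totals were 7510327 to 10363396 counts in P1 and 12196413 to 14266132 in WT, and the members took 0.229 to 0.616% of them in P1 and 0.402 to 0.453% in WT. The B cell label was checked against 20 pan-B genes: 16 were lower and 0 higher in P1 spleen (edgeR), with summed levels, in CPM (counts scaled to the TMM-adjusted library total), of 3928 to 13270 CPM in P1 and 26910 to 30550 CPM in WT. Other cells were present in P1 spleen, where all 14 tested erythroid, all 14 neutrophil and all 13 T cell markers were called higher. Of the other lists, 2 of 13 macrophage and monocyte, 3 of 7 NK cell and 0 of 5 megakaryocyte markers were called higher. Of 6 endothelial and stromal markers, 4 were called higher and 1, Pecam1, lower. All 12 cell division markers, which do not mark a cell type, were called higher too. Of all tested genes, 16.9% were called higher and 11% lower. Summed erythroid markers reached 37660, 225400 and 7028 CPM in P1 replicates 3, 4 and 5, against 132, 104 and 122 CPM in WT A, B and C. P1 replicates 4 and 5 stood apart: replicate 4 had a normalisation factor of 0.578, against 1.09 to 1.18 in WT, with 17.4% of its counts on the mitochondrial chromosome, and replicate 5 had 0.085% there, against 0.569 to 1.14% in WT. In bulk samples such as these, fewer cells of a type and less RNA per cell cannot be told apart.

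Few respiratory chain subunit genes were called different between P1 spleen and WT B cells. Of the 78 members that passed the filter on low counts, 3 were higher (3.85%) and 1 was lower (1.28%) in P1 spleen at an adjusted p under 0.05 (edgeR quasi-likelihood test, Benjamini-Hochberg over all 15462 tested genes). The same test called 16.9% of all tested genes higher and 11% lower, 27.9% in all, against 5.13% of the tested members. The 3 higher members were Ndufb9 of complex I, Uqcr11 of complex III and Cox6b2 of complex IV, and the lower one was Cox7a2l, counted with complex IV. At an unadjusted p under 0.05 (edgeR), 7 of the 78 members were higher and 2 lower. Of all 15462 tested genes, 3457 were higher and 2733 lower at that threshold. The DESeq2 Wald test called 7 members higher and 1 lower, against 34.4% of all tested genes, 20.1% higher and 14.3% lower.

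The sizes of the differences were small for most members. The log2 fold change of P1 spleen over WT B cells lay within 0.5 of 0 in 57 of the 78 tested members (73.1%), against 38.2% of all tested genes, and within 1 in 74 of them (94.9%), against 62.0% of all tested genes. The median was 0.19 over the members (quartiles -0.09 to 0.44) and 0.02 over all tested genes (quartiles -0.62 to 0.84). The standard error had a median of 0.29 over the members and 0.41 over all tested genes, and the members' level, per kilobase of exon, had a median of 19.8 CPM against 4.54 CPM over all tested genes. P1 and WT libraries did not overlap in 21 of the 78 members (26.9%), with P1 above in 12 and below in 9, against 47.8% of all tested genes, 22.9% above and 24.9% below. A member that was not called is not thereby shown to be equal in both groups. With 1 library left out in turn, between 1 and 5 members were called higher (1 without WT A or without WT B, 5 without P1 replicate 3 or without P1 replicate 4), and 0 were called lower without WT A, B or C. Without P1 replicate 4, and likewise without P1 replicate 5, all 4 members named above kept their calls, with an adjusted p of at most 0.0473.

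**Figure D1:**
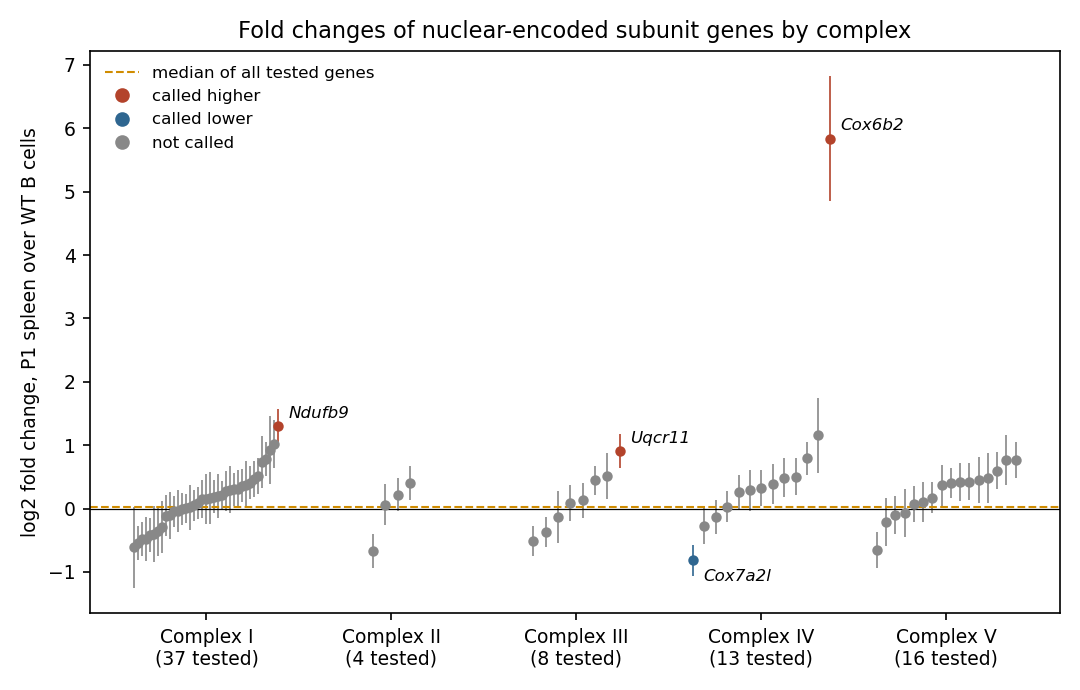
Log2 fold change of P1 spleen over WT B cells for the 78 tested members, sorted within each complex; points are edgeR estimates and bars their standard errors, and the dashed line is the median of all tested genes (0.02). Ndufb9, Uqcr11 and Cox6b2 are the members called higher and Cox7a2l the one called lower, and Cox6b2 stands far above the rest at 5.84.

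Complex I, the entry point for electrons from NADH, had all 37 members tested, with a median log2 fold change of 0.15, 1 member called higher and 0 lower. Ndufv1, which holds the NADH site, had a log2 fold change of 0.47 ± 0.28 (SE; adjusted p = 0.252, edgeR), and Ndufv2 one of 0.00 ± 0.23 (adjusted p = 0.997, edgeR). Ndufs1, Ndufs7 and Ndufs8, which hold iron-sulphur clusters, had log2 fold changes of -0.04, -0.11 and -0.36, and none was called. The complex ranged from -0.61 for Ndufb4 to 1.30 for Ndufb9.

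Ndufb9 (GRCm39 chr15:58805605-58811337), an accessory subunit of the membrane arm, had 48.6, 68.3 and 73.8 normalised CPM in P1 replicates 3, 4 and 5, against 20.9, 25.9 and 30.8 CPM in WT A, B and C. All 3 P1 libraries were above all 3 WT libraries. The log2 fold change was 1.30 ± 0.27 (SE), with an adjusted p of 0.00908 (edgeR), from means of 63.5 ± 13.2 CPM in P1 and 25.9 ± 4.93 CPM in WT (SD, n = 3 each). The call was lost without WT A (adjusted p = 0.0649) and without WT B (0.0581), and the log2 fold change then was 1.13 and 1.27. The gene's span overlaps the predicted gene Gm49356 on the same strand, which had at most 5 counts in any library.

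Ndufa2, an accessory subunit of the matrix arm, had the highest level per kilobase of complex I, a mean of 91.6 CPM per kilobase over the 6 libraries. It had 30.4, 40.3 and 134.9 CPM in P1 replicates 3, 4 and 5, against 29.0, 34.7 and 45.0 CPM in WT A, B and C. Only P1 replicate 5 exceeded the WT libraries, and the log2 fold change of 0.92 ± 0.53 (SE) was not called (adjusted p = 0.237, edgeR). Its span overlaps Tmco6 on the opposite strand, and since the counting strand is not stated, reads of the pair may not be separable.

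Ndufb7 and Ndufa5, further accessory subunits named here after their values were seen, lay near the threshold. Ndufb7 averaged 58.8 ± 15.7 CPM in P1 and 34.2 ± 1.45 CPM in WT (SD, n = 3 each), and its log2 fold change was 0.78 ± 0.26 (adjusted p = 0.0583, edgeR). Ndufa5 averaged 6.99 ± 0.99 CPM in P1 and 3.44 ± 0.67 CPM in WT, a log2 fold change of 1.02 ± 0.38 (adjusted p = 0.0787, edgeR). In both genes the 3 P1 libraries were above the 3 WT libraries.

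Complex II, succinate dehydrogenase, also works in the tricarboxylic acid cycle and has no subunit from the mitochondrial genome. Sdha, its flavoprotein with the succinate site, had the highest level of the complex, a mean of 37.3 CPM per kilobase. It had 130.2, 85.2 and 141.4 CPM in P1 replicates 3, 4 and 5, against 188.6, 190.4 and 186.9 CPM in WT A, B and C. The P1 libraries all lay below the WT libraries, which differed little from each other. The log2 fold change was -0.66 ± 0.27 (SE) and did not pass the test over all genes (adjusted p = 0.102, edgeR). Sdhb, Sdhc and Sdhd, the iron-sulphur subunit and the 2 membrane anchors, had log2 fold changes of 0.40, 0.06 and 0.22, with overlapping groups. In complex II 0 of 4 genes were called by edgeR and 0 by DESeq2, and Sdha alone had an unadjusted p under 0.05.

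Complex III passes electrons from ubiquinol to cytochrome c. All 8 of its members were tested, with a median log2 fold change of 0.11, 1 called higher and 0 lower. Uqcr11 (GRCm39 chr10:80238831-80242664), its smallest subunit, had 23.6, 28.2 and 33.1 CPM in P1 replicates 3, 4 and 5, against 13.6, 15.7 and 15.9 CPM in WT A, B and C. The groups did not overlap, and the log2 fold change was 0.91 ± 0.26 (SE; adjusted p = 0.0332, edgeR). Leaving out WT A, B or C took the adjusted p to 0.166, 0.133 and 0.127, with log2 fold changes of 0.81, 0.91 and 0.91. With no filter on low counts the adjusted p was 0.153.

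Uqcr10, another small subunit, had the highest level of complex III, a mean of 52.4 CPM per kilobase. It had 25.97, 25.92 and 56.03 CPM in P1 replicates 3, 4 and 5, against 20.4, 29.2 and 26.1 CPM in WT A, B and C, so P1 replicate 5 alone stood above the WT libraries. Its log2 fold change of 0.51 ± 0.36 (SE) was not called (adjusted p = 0.324, edgeR). The core proteins Uqcrc1 and Uqcrc2 had log2 fold changes of 0.09 and -0.51, and the Rieske iron-sulphur protein Uqcrfs1 one of 0.13; none of these was called.

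Complex IV, cytochrome c oxidase, had 13 of its 18 members tested and a median log2 fold change of 0.32. It held the widest range of the 5 complexes, from -0.82 for Cox7a2l to 5.84 for Cox6b2. Cox6b2 (GRCm39 chr7:4754791-4756093) encodes the form of subunit 6B known from testis. The reads counted for it numbered 147, 259 and 44 in P1 replicates 3, 4 and 5, against 9, 7 and 4 in WT A, B and C. These were 12.6, 59.9 and 5.10 CPM in P1, against 0.545, 0.450 and 0.302 CPM in WT. Every P1 library was above every WT library, yet the P1 libraries differed widely among themselves, with means of 25.9 ± 29.7 CPM in P1 and 0.432 ± 0.122 CPM in WT (SD, n = 3 each).

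The log2 fold change of Cox6b2 was 5.84 ± 0.98 (SE), with an adjusted p of 0.00352 (edgeR), and the gene was called in all 12 alternative settings. Without P1 replicate 4, its highest library, the log2 fold change was 4.35 (adjusted p = 0.00373). Its order among the P1 libraries had replicate 4 highest and replicate 5 lowest. The summed erythroid markers given above, none of which was at 0 in either group, and the counts on the mitochondrial chromosome had this order. So did the summed cell division markers (3434, 5219 and 2513 CPM in P1 replicates 3, 4 and 5), the endothelial and stromal markers and the striated muscle markers. Pan-B markers ran the other way (7202, 3928 and 13270 CPM). Neutrophil, T cell, macrophage and monocyte, NK cell and megakaryocyte markers had other orders. The part of any of these in the result was not tested. No other annotated row overlaps the span of Cox6b2.

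Cox6b1, the form of subunit 6B used by most cells, had 77.0, 57.6 and 88.6 CPM in P1 replicates 3, 4 and 5, against 49.1, 67.6 and 69.8 CPM in WT A, B and C. The groups overlapped, and the log2 fold change was 0.26 ± 0.27 (SE; adjusted p = 0.508, edgeR). Per kilobase of exon, Cox6b2 averaged 23.4 ± 26.8 CPM in P1 and 0.390 ± 0.111 CPM in WT, and Cox6b1 averaged 105.1 ± 22.1 CPM in P1 and 87.8 ± 16.1 CPM in WT (SD, n = 3 each). Cox6b1 thus had the higher level of the pair in both groups.

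Cox7a2l (GRCm39 chr17:83809347-83824759) encodes a relative of Cox7a2 known for joining complexes III and IV into supercomplexes. It had 62.9, 83.8 and 63.6 CPM in P1 replicates 3, 4 and 5, against 108.5, 138.1 and 123.4 CPM in WT A, B and C. All 3 P1 libraries were below all 3 WT libraries, and the log2 fold change was -0.82 ± 0.24 (SE; adjusted p = 0.0380, edgeR). The call was lost without P1 replicate 3 (adjusted p = 0.0570) and without WT A (0.0877), WT B (0.149) or WT C (0.107). Over all 6 leave-outs the log2 fold change lay between -0.94 and -0.75. When the libraries were scaled to equal pan-B marker levels, all genes shifted by a median log2 fold change of 3.61, and Cox7a2l stood at 2.93, below that median but above 0.

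**Figure D2:**
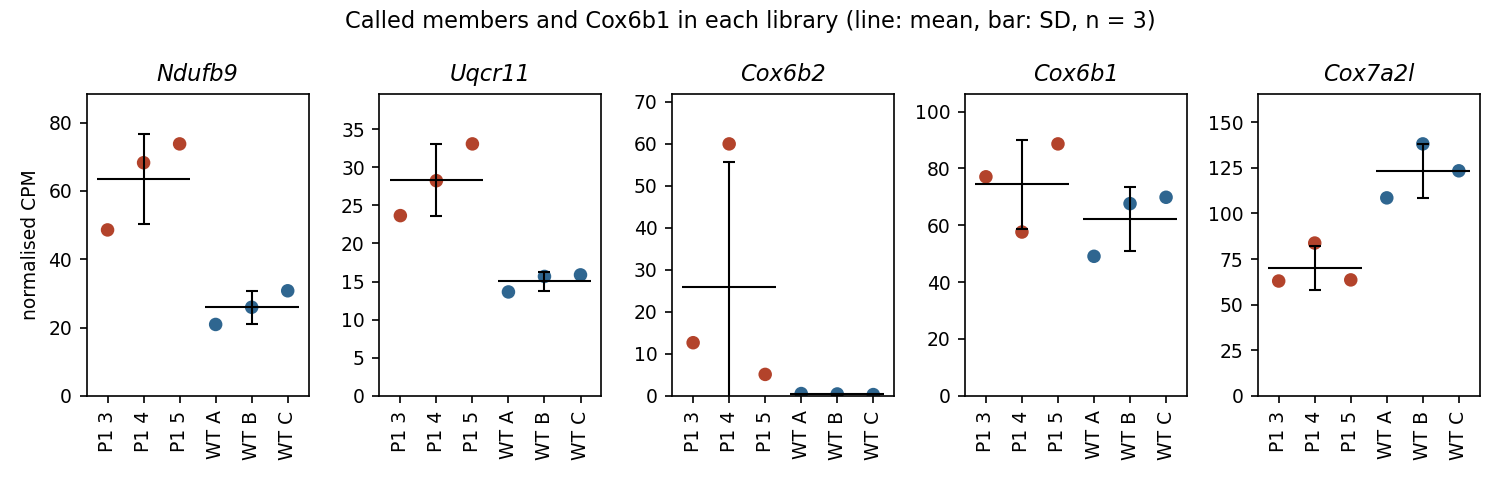
Normalised CPM in each library for the 4 called members and for Cox6b1, the common partner form of Cox6b2; each panel has its own axis from 0, horizontal lines are group means and bars are SD (n = 3), and the lower end of the P1 bar of Cox6b2 would fall below 0. P1 libraries lie above WT for Ndufb9, Uqcr11 and Cox6b2 and below WT for Cox7a2l, and Cox6b1 overlaps; Cox6b2 runs from 5.10 to 59.9 CPM within P1.

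The RefSeq sequences before the start of 3 called members and of Cox6b1 follow, to show how the promoters of these genes differ; the sequence for Ndufb9 was not used here. Each is 250 bases ending just before the start of the gene (RefSeq, GRCm38.p6, minus strand, written 5′ to 3′), and capitals mark the letters CGGAAG (ETS family, the core read by GABP) or GGGCGG (SP1), on either strand. The windows are chr7:4753095-4753344 for Cox6b2, chr7:30626115-30626364 for Cox6b1, chr10:80406822-80407071 for Uqcr11 and chr17:83514334-83514583 for Cox7a2l.
Cox6b2: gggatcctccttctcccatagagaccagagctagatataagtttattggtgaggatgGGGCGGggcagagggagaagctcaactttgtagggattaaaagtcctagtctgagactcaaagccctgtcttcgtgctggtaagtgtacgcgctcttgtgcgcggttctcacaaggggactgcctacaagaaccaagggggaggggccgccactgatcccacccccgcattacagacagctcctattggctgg
Cox6b1: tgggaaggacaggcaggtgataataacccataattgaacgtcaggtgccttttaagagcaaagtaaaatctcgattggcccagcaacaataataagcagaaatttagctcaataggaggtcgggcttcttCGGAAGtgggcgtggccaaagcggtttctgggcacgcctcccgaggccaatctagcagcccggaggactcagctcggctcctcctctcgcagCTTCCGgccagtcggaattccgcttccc
Uqcr11: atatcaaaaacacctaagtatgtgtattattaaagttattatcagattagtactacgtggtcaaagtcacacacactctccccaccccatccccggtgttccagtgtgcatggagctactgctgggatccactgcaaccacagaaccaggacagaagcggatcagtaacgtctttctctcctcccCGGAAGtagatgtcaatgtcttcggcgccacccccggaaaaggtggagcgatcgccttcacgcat
Cox7a2l: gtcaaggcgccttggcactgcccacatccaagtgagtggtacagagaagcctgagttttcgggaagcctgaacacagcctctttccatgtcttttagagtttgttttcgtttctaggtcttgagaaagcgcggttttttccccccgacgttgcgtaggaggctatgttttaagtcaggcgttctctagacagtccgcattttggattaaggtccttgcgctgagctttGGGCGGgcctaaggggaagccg
Cox6b1 held 2 ETS matches and Uqcr11 held 1, while Cox6b2 and Cox7a2l each held 1 SP1 match and no ETS match. None of these 4 windows held the letters searched for NRF1, YY1 or ERR. A match is a run of letters and not a shown binding site.

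NRF1, the ETS factor GABP, YY1 and ERR-alpha are known in mammals as regulators of genes for the respiratory chain. The RefSeq windows used here were 72 for 67 of the 83 member symbols, among 32851 windows of all genes. The NRF1 letters GCNTGCGC were in 19 of the 72 windows (26.4%), against 8.3% of all windows. The ETS letters CGGAAG were in 21 (29.2%), against 13.6% of all windows. The SP1 letters GGGCGG were in 24 (33.3%), against 32.7%. The YY1 letters AAGATGG were in 1 (1.39%), against 4.49%, and the ERR letters CAAGGTCA in 3 (4.17%), against 1.33%. Both strands were searched, no motif's letters contain another's though NRF1 matches can overlap each other, and the GC content had a median of 56% in the members' windows and 52.4% in all windows. These shares are a description with no test.

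Of the other complex IV families with a second form, the forms used by most cells were measured in all 6 libraries. Their log2 fold changes ran from -0.14 (Cox8a) to 0.49 (Cox6a1), and none was called. Cox4i1, which had the highest level per kilobase of the complex with a mean of 167 CPM per kilobase, had 207.5, 304.1 and 372 CPM in P1 replicates 3, 4 and 5, against 178.8, 224.4 and 269.3 CPM in WT A, B and C. The groups overlapped and the log2 fold change was 0.39 ± 0.31 (SE; adjusted p = 0.389, edgeR). Cox6a1 had 54.6, 69.4 and 97.2 CPM in P1, against 38.1, 63.4 and 56.3 CPM in WT (log2 fold change 0.49 ± 0.31, adjusted p = 0.276, edgeR). In both of these genes P1 replicate 5 was the highest of the 6 libraries.

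Cox7a2 had 38.6, 31.0 and 20.6 CPM in P1, against 18.9, 31.6 and 23.4 CPM in WT (0.29 ± 0.33, adjusted p = 0.552, edgeR). Cox7b had 44.9, 40.7 and 28.6 CPM in P1, against 31.2, 36.1 and 24.1 CPM in WT (0.32 ± 0.28, adjusted p = 0.434, edgeR). Cox8a had 71.5, 48.1 and 76.6 CPM in P1, against 60.6, 80.5 and 75.2 CPM in WT (-0.14 ± 0.27, adjusted p = 0.738, edgeR). The groups overlapped in each of these 3 genes. Cox6c, a small subunit with no second form among the members, had 26.7, 33.6 and 39.1 CPM in P1, against 17.5, 21.8 and 18.1 CPM in WT. Its groups did not overlap, and its log2 fold change of 0.79 ± 0.27 (SE) lay just outside the threshold (adjusted p = 0.0568, edgeR); its span overlaps Vps13b on the opposite strand.

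Among the forms restricted to certain tissues, Cox6b2 was alone in being called, and Cox6a2 was the only other one that passed the filter. Cox6a2, the heart and skeletal muscle form of subunit 6A, had 4.21, 3.47 and 1.51 CPM in P1 replicates 3, 4 and 5, against 0.727, 1.22 and 2.19 CPM in WT A, B and C. The groups overlapped, and its log2 fold change was 1.15 ± 0.59 (SE; adjusted p = 0.182, edgeR). The 8 striated muscle markers summed to 1.62 to 18.3 CPM in P1 and 0.450 to 1.66 CPM in WT, with Mb and Tnnt2 at 0 in all 6 libraries and Actc1 and Myh7 at 0 in WT, and their part in these values was not tested; the span of Cox6a2 also overlaps Itgad, a myeloid integrin gene, on the opposite strand.

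The remaining forms were at or near 0. Cox7a1, the muscle form of subunit 7A, had 16 counts over the P1 libraries and 50 over the WT libraries, and Cox4i2, known from lung, had 9 over P1 and 6 over WT. Cox8b, a muscle form, had 0 counts in P1 and 10 in WT (6, 2 and 2 in WT A, B and C). The WT level was 1.81-fold a floor of 3 counts over the P1 group (0.122 CPM). This ratio leaves out the error of the 10 WT counts. Cox7b2 and Cox8c, known from testis, and the row of Atp5o with the gene ID ENSMUSG00000116933 had 0 counts in all 6 libraries. These 6 rows did not pass the filter and were not tested.

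Complex V, the ATP synthase, had 16 of its 17 members tested. Its median log2 fold change, 0.38, was the highest of the 5 complexes, with complex IV next at 0.32. The log2 fold change was positive in 12 of 16 members of complex V and 10 of 13 of complex IV. It was positive in 54 of all 78 tested members and in 7859 of all 15462 tested genes. No member of complex V was called by edgeR. Only Atp5j2, named after its values were seen, had an unadjusted p under 0.05 (edgeR), with P1 above WT in every library. Its log2 fold change was 0.77 ± 0.28 (SE; adjusted p = 0.0779, edgeR). DESeq2 called 1 other member, Atp5b. Atp5a1 and Atp5b encode the alpha and beta subunits of the catalytic head and held 60.2 to 69.6% of the complex's summed CPM in P1 and 55.97 to 57.9% in WT. Atp5a1, with the highest level per kilobase of the complex (a mean of 156 CPM per kilobase), had 453, 411 and 986 CPM in P1 replicates 3, 4 and 5, against 314, 392 and 380 CPM in WT A, B and C. All P1 libraries were above WT, replicate 5 by far the most, and the log2 fold change was 0.77 ± 0.40 (SE; adjusted p = 0.189, edgeR). Atp5b averaged 698 ± 102 CPM in P1 and 461 ± 42.7 CPM in WT (SD, n = 3 each), a log2 fold change of 0.60 ± 0.30 (adjusted p = 0.169, edgeR).

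Atp5g1, Atp5g2 and Atp5g3 encode the same mature protein, the c subunit of the rotor ring, and were singled out after their values were seen because they did not share a direction. Atp5g1 had a log2 fold change of 0.48 ± 0.40 and Atp5g3 one of 0.40 ± 0.23. Atp5g2 had one of -0.65 ± 0.29, with means of 28.5 ± 8.96 CPM in P1 and 45.1 ± 3.02 CPM in WT (SD, n = 3 each). None was called (adjusted p = 0.404, 0.235 and 0.128 for Atp5g1, Atp5g3 and Atp5g2, edgeR), and the differences between the 3 genes were not tested. Without P1 replicate 3 the adjusted p of Atp5g2 was 0.0445.

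The P1 libraries differed among themselves more than the WT libraries did. The median SD of the members' log2 level was 0.39 over the P1 libraries and 0.19 over the WT libraries, against 0.55 in P1 and 0.19 in WT over all tested genes. P1 replicate 5 was the highest P1 library in 44 of the 78 tested members, replicate 3 in 27 and replicate 4 in 7, and replicate 4 was the lowest in 47. A distance of more than 1 on the log2 scale from the WT mean was reached by 2 members in P1 replicate 3 (2.56%), 8 in replicate 4 (10.3%) and 14 in replicate 5 (17.9%), against 33.7, 45.9 and 38.2% of all tested genes.

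In P1 replicate 5, 12 members lay more than 1 above the WT mean, among them Cox6b2, Ndufa2, Ndufb9, Ndufa8 and Atp5a1, and 2 lay as far below, Ndufb4 and Ndufa3. Ndufb4, an accessory subunit singled out after its values were seen, had 1.16 CPM in P1 replicate 5, against 8.43 and 8.33 CPM in replicates 3 and 4 and 9.09, 10.7 and 7.41 CPM in WT A, B and C. In P1 replicate 4, Cox6b2, Ndufb9 and Cox6a2 lay more than 1 above, and Ndufs8, Atp5g2, Sdha, Ndufa12 and Ndufb2 more than 1 below. Cox6b2 was the member beyond this distance in all 3 P1 libraries. Without P1 replicate 5 the members' median log2 fold change was 0.05, and without P1 replicate 4 it was 0.30.

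**Figure D3:**
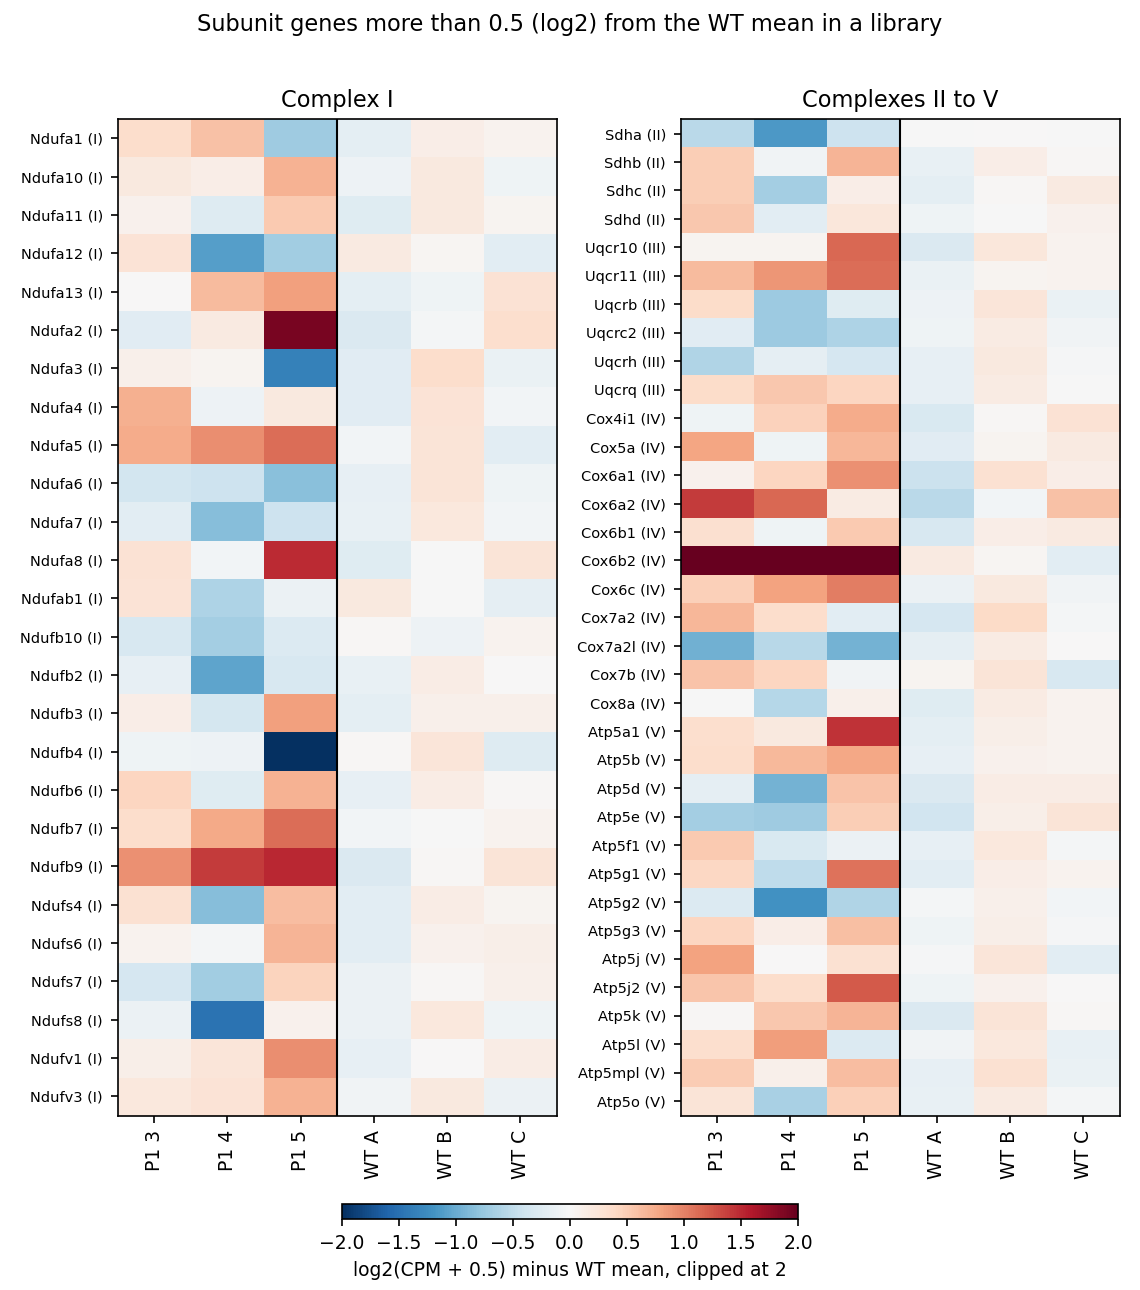
Distance from the WT mean in each library, as log2(CPM + 0.5) minus the mean of the 3 WT libraries, for the 61 tested members that lay more than 0.5 from it in at least 1 library; rows are genes, columns libraries with P1 left of the line, and colours are clipped at 2 either way, which Cox6b2 exceeds in all P1 libraries and Ndufb4 in P1 replicate 5. WT columns are the palest, and P1 replicate 5 holds 14 members beyond 1.

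Summed over each complex, the members' levels overlapped between the groups in complexes I to IV. Complex I summed to 1085, 1025 and 1439 CPM in P1 replicates 3, 4 and 5, against 909, 1072 and 1044 CPM in WT A, B and C. Complex II summed to 293, 178 and 290 CPM in P1 and 292, 310 and 310 CPM in WT, so replicate 4 stood lowest. Complex III had means of 419 ± 67.2 CPM in P1 and 415 ± 43.7 CPM in WT, and complex IV of 795 ± 91.5 CPM in P1 and 689 ± 98.5 CPM in WT (SD, n = 3 each). Complex V summed to 1727, 1624 and 2585 CPM in P1, all above the 1264, 1574 and 1490 CPM in WT. Of this, Atp5a1 and Atp5b, neither called by edgeR, held 1039, 1130 and 1774 CPM in P1 and 726, 881 and 863 CPM in WT. The place of P1 replicate 4 depends on its normalisation factor of 0.578. Of its raw counts all members took 0.229%, against 0.402 to 0.453% in WT. The ratio of means was 1.37 for complex V. Scaled to library totals, the ratio was 1.18 for complex V, 0.999 for complex I, 0.861 for complex III and 0.960 for complex IV. Over all members the sums were 4630 ± 926 CPM in P1 and 3859 ± 397 CPM in WT (SD, n = 3 each), a difference smaller than the spread in P1.

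The 13 protein genes of the mitochondrial genome, which encode further subunits of complexes I, III, IV and V, varied far more. Their summed level was 26350, 268500 and 634 CPM in P1 replicates 3, 4 and 5, against 4452, 8843 and 4879 CPM in WT A, B and C. P1 replicates 3 and 4 thus stood above and replicate 5 below every WT library. The ratio of this sum to the summed nuclear members was 6.26, 67.4 and 0.112 in P1 and 1.31, 2.13 and 1.22 in WT. Their median log2 fold change was 4.03 over the 12 tested. Of these, 0 were called by edgeR, 10 were higher at an unadjusted p under 0.05 and DESeq2 called 6 higher. Of all 15462 tested genes, 3457 were higher at that unadjusted p, and DESeq2 called 20.1% higher. The P1 order, replicate 4 highest and replicate 5 lowest, was that of the summed erythroid, cell division, endothelial and stromal, and striated muscle markers. It was the reverse of that of the summed pan-B markers. The part of any of these markers in it was not tested.

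**Figure D4:**
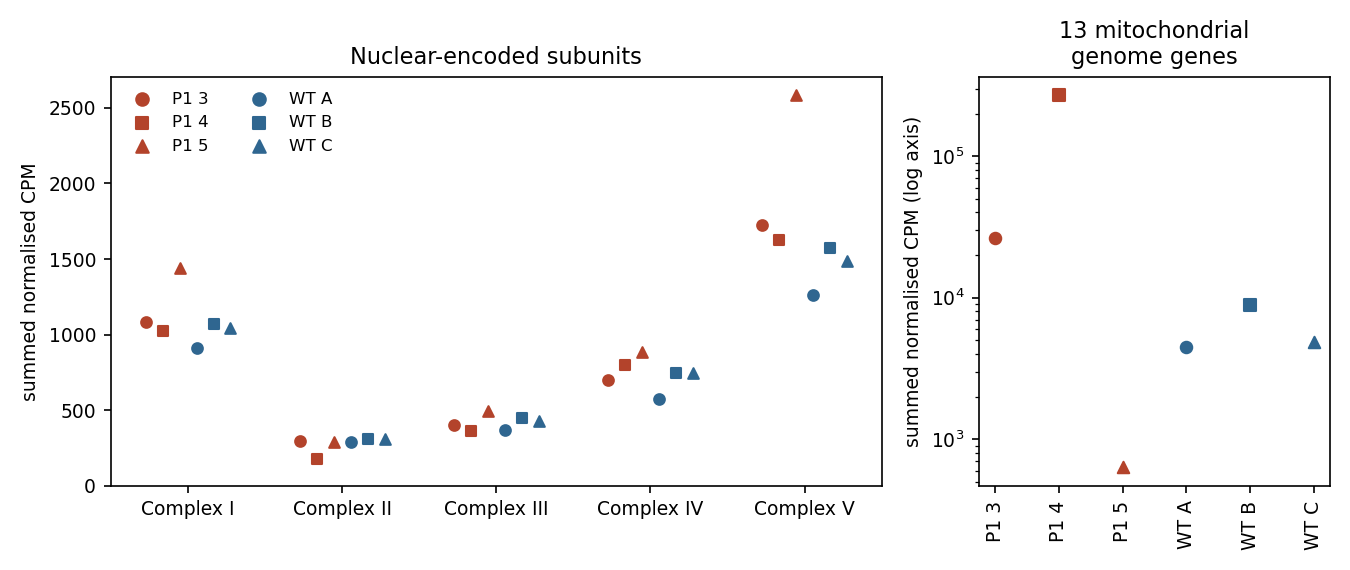
Summed normalised CPM of the nuclear-encoded members of each complex (left, axis from 0) and of the 13 protein genes of the mitochondrial genome (right, log axis) in each of the 3 P1 and 3 WT libraries. The nuclear sums overlap between groups in complexes I to IV and lie above WT in all 3 P1 libraries in complex V, with P1 replicate 5 highest in complexes I, III, IV and V, while the mitochondrial sums run from 634 to 268500 CPM within P1.

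Other genes of mitochondrial respiration were read from lists outside the rule. For all 15462 tested genes, edgeR called 16.9% higher and 11% lower, and DESeq2 20.1% higher and 14.3% lower. At an unadjusted p under 0.05 (edgeR), 3457 of them were higher and 2733 lower. Of the assembly factors, which build the complexes, 0 of 16 for complex I, 0 of 4 for complex II, 0 of 6 for complex III and 0 of 6 for complex V were called by edgeR. At an unadjusted p under 0.05, 1 complex I and 1 complex II factor were lower, and DESeq2 called 1 lower in each of these lists and 0 in the complex III and V lists. Their median log2 fold changes were -0.26, -0.26, -0.18 and -0.07. Of 23 tested complex IV factors, 1 was higher and 1 lower, 8.70% in all, against 27.9% of all tested genes. The higher one was Cox11, which delivers copper (log2 fold change 1.44, adjusted p = 0.0288, edgeR). The lower one was Cox20, a chaperone of mt-Co2 (-1.54, adjusted p = 0.0483, edgeR). Both calls were lost when single libraries were left out, with adjusted p up to 0.138 for Cox11 (without WT B) and 0.199 for Cox20 (without WT C).

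Of 18 electron carrier genes, which make ubiquinone and cytochrome c or pass electrons to them, 0 were higher and 2 lower. The 2 lower were 11.1% of the list, near the 11% of all tested genes called lower. The lower genes were Coq8a, a ubiquinone biosynthesis kinase-like protein (log2 fold change -2.10, adjusted p = 0.0230, edgeR), and Coq10b, a ubiquinone-binding protein (-1.43, adjusted p = 0.0195, edgeR). Both calls were lost without WT A, B or C in turn, with adjusted p up to 0.0660 for Coq8a and 0.0768 for Coq10b, and that of Coq8a also without P1 replicate 4 (0.0690). Somatic cytochrome c itself, Cycs, averaged 10.6 ± 5.53 CPM in P1 and 6.89 ± 0.54 CPM in WT (SD, n = 3 each) and was not called (adjusted p = 0.341, edgeR).

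Of 18 genes of the tricarboxylic acid cycle and its entry, 2 were higher and 0 lower. The 2 higher were 11.1% of the list, against 16.9% of all tested genes called higher. Pcx, pyruvate carboxylase, had a log2 fold change of 2.95 (adjusted p = 0.00604, edgeR), and Pdha1, a subunit of pyruvate dehydrogenase, one of 0.87 (adjusted p = 0.0478, edgeR). The call of Pdha1 was lost without any 1 of WT A, B and C or P1 replicates 4 and 5, with adjusted p up to 0.188 (without WT A), while Pcx was called in every setting tried.

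Of 18 regulators of mitochondrial genes and mitochondrial DNA, 0 were higher and 2 lower. The 2 lower were 11.1% of the list, near the 11% of all tested genes called lower. Ppargc1a, the coactivator PGC-1 alpha known for driving mitochondrial biogenesis, had counts of 4, 1 and 0 in P1 replicates 3, 4 and 5, against 69, 52 and 41 in WT A, B and C. The log2 fold change was -4.09 ± 0.74 (SE; adjusted p = 0.00470, edgeR), from 0.192 ± 0.175 CPM in P1 and 3.54 ± 0.57 CPM in WT (SD, n = 3 each). Polg2, the accessory subunit of the mitochondrial DNA polymerase, had a log2 fold change of -1.30 (adjusted p = 0.0204, edgeR), lost without WT A (0.102) or WT C (0.0581). Of the factors whose letters were searched above, Nrf1, Gabpa, Yy1 and Esrra had log2 fold changes of -0.01, -0.36, 0.56 and -0.09. None of these was called (adjusted p = 0.971, 0.307, 0.348 and 0.810, edgeR), and values for Sp1 are not given here.

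Of 78 mitochondrial ribosome genes 2 were higher and 2 lower by edgeR, 5.13% in all, against 27.9% of all tested genes. The higher ones were Mrpl33 (log2 fold change 1.43, adjusted p = 0.0125, edgeR) and Mrpl27 (1.08, adjusted p = 0.0271, edgeR). The lower ones were Mrpl54 (-1.35, adjusted p = 0.00736, edgeR) and Mrpl24 (-0.82, adjusted p = 0.0462, edgeR, named after its value was seen). Without WT A, B or C in turn the calls of Mrpl33, Mrpl27 and Mrpl24 were lost (adjusted p up to 0.0704, 0.143 and 0.139), and that of Mrpl24 also without P1 replicate 3 (0.0726) or 4 (0.0665). Of 25 mitochondrial import genes 0 were called by edgeR, 1 was lower at an unadjusted p under 0.05 and DESeq2 called that number too; the median was 0.22. The medians of the carrier, cycle, ribosome and regulator lists were 0.03, -0.03, 0.04 and -0.30, beside 0.19 for the subunits and 0.02 for all tested genes.

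**Figure D5:**
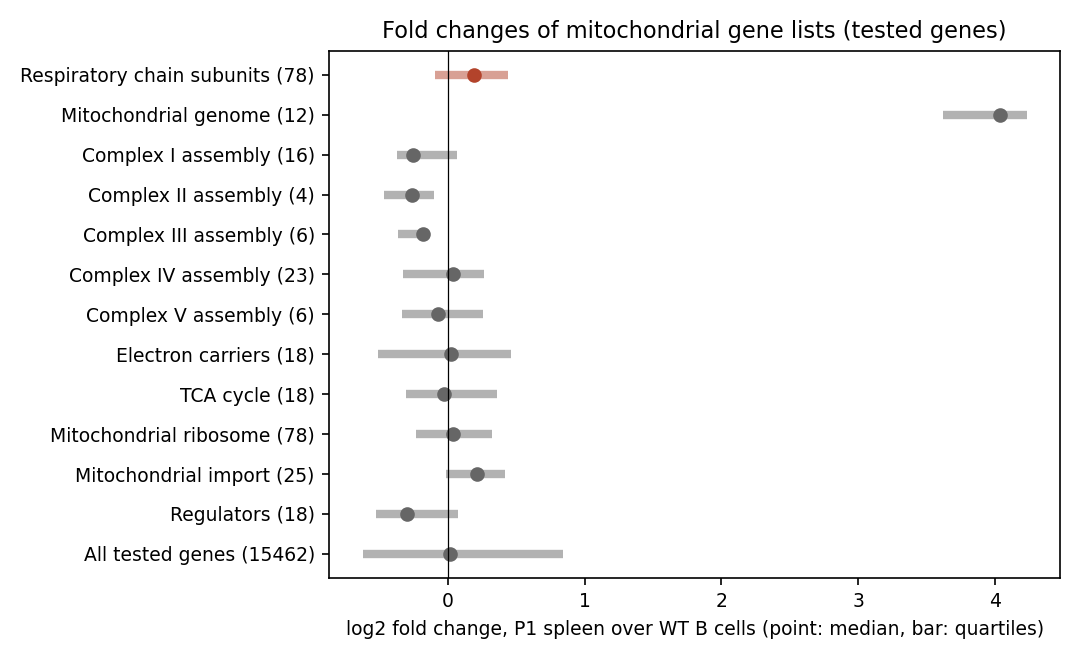
Log2 fold change of P1 spleen over WT B cells in the subunit genes, in other mitochondrial gene lists and in all tested genes; points are medians, bars run between the quartiles, and numbers in brackets are genes tested. The nuclear lists lie within about 0.3 of 0 with narrower bars than all tested genes, and the mitochondrial genome list stands at 4.03.

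The members lie on 19 chromosomes, with 9 on chromosome 7, the most on any. Their exon lengths were short, with a median of 1631 bases over the tested members and 4496 over 12044 tested protein-coding genes. The spans of 39 of the 84 members overlap another annotated row, 12 of them on the same strand, and 45 overlap none. Sdha, Cox4i1 and Atp5a1 overlap Gm16125, Emc8 and Haus1 on the opposite strand. A further 8 rows with symbols of the rule are annotated as pseudogenes and had at most 5 counts in any library.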

How the data were processed

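RNA of 3 P1 spleens and 3 WT B cell samples was sequenced. Libraries were made with the NEBNext Ultra Directional kit from 50 ng of total RNA per the labels' protocols. The authors deposited raw gene counts in 1 table of 56884 rows. Per the submitters' processing notes, the authors used Trim Galore, HISAT2, featureCounts and GRCm39; versions and the counting strand are not given in the sources used here. Symbols and biotypes were matched by Ensembl ID to 51948 rows (91.3%), and coordinates are those of the table. After filterByExpr and TMM normalisation, the robust quasi-likelihood F-test of edgeR 4.0.16 (R 4.3.3) was applied with no covariate, since the labels give no batch. P-values were adjusted by Benjamini-Hochberg over 15462 genes and called under 0.05. Standard errors were derived from the test, as the absolute log2 fold change over the square root of its F statistic. Normalised CPM are counts over TMM-scaled totals, and levels between genes are CPM per kilobase of the table's exon length. Alternatives were DESeq2 (1.42.0) and its size factors, library totals, TMM without the mitochondrial genome, scaling to pan-B markers, no filter and each library left out. Members, lists and tests were chosen with earlier results of these data known. Per complex, library values were given for the called members, the highest level per kilobase and the Cox isoform families; any member of a companion list of 26 or fewer could be named, and of longer lists the 3 smallest adjusted p. Promoter letters were searched in RefSeq (GRCm38.p6) windows of 250 bases. The precision of a count is limited by depth, 7510327 to 14266132 counts per library. A result that needs an item withheld from the text is not reported here.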

Additional observations from a re-analysis of the deposited data

How the results depend on the processing

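Scaling had the largest effect. Scaled to pan-B markers, the median of all genes was 3.61 and that of the members 3.77, so 78 members were called higher and 0 lower, and 14526 genes higher and 66 lower; relative to all genes the members' median was 0.16, against 0.17 with TMM, -0.03 with no filter and 0.03 to 0.25 with 1 library left out (0.03 without WT A, 0.07 without P1 replicate 5, 0.25 without P1 replicate 4). Under this scaling the sign turned for all 24 members with a negative log2 fold change (2.83 to 3.57), among them Ndufs1 (3.48), Ndufs7 (3.36), Ndufs8 (3.00), Ndufb4 (3.17), Sdha (2.84), Uqcrc2 (3.07), Cox7a2l (2.93), Cox7c (3.30), Cox8a (3.38) and Atp5g2 (2.83); among the called genes of the other lists it turned for Cox20 (2.01), Coq10b (2.12), Coq8a (1.33), Polg2 (2.19), Mrpl24 (2.70) and Mrpl54 (2.18), all, members too, below its median for all genes, and Ppargc1a stood at -0.86 (adjusted p = 0.365). With library totals 1 member was called higher and 0 lower, Ndufb9 (adjusted p = 0.116), Uqcr11 (0.368) and Cox7a2l (0.0507) were lost, the members' median was -0.05 against -0.24 for all genes, and the ratio of complex sums was 0.999, 0.734, 0.861, 0.960 and 1.18 for complexes I to V, against 1.17, 0.836, 1.01, 1.15 and 1.37 with TMM. DESeq2 called 7 of the 78 members higher and 1 lower, while of all tested genes it called 20.1% higher and 14.3% lower. The added members were Ndufa5, Ndufb7, Cox6c and Atp5b. With 1 library left out, 1 to 5 members were called higher and 0 to 1 lower, and 1644 to 3206 genes higher and 815 to 2313 lower; Cox5a and Atp5j2 passed without P1 replicate 4 (adjusted p = 0.0478 and 0.0300). DESeq2 size factors and TMM without the mitochondrial genome left 3 members higher and 1 lower. The cause of these changes was not tested. No paired analysis was possible because the WT columns carry no mouse number. Depth and 3 libraries per group limit what small differences can be shown.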
